A study of Mus musculus with 3 samples.

Results

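Inward rectifier, SK and two-pore potassium channels set the resting membrane potential of heart cells and help to end the action potential. TBX5, a T-box transcription factor required for heart and forelimb development, was mapped around 8 of their genes, namely the inward rectifier genes Kcnj2, Kcnj3, Kcnj5 and Kcnj8, the SK genes Kcnn2 and Kcnn3, and the two-pore genes Kcnk1 and Kcnk3. A TBX5 peak was counted for a gene if its summit, the position of highest signal, lay in the RefSeq gene body or within 50 kb of it. By this rule 14 of the 12436 peaks belonged to the channel genes. The peaks of a gene were taken by position, whatever their strength or marks, but the genes themselves were chosen with earlier results of these data known.

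The data are from ChIP-seq, in which DNA bound by TBX5 is precipitated with an antibody and sequenced. Hearts came from E14.5 embryos of the outbred CD-1 mouse stock. There were 2 biological replicates, each precipitated with 5 µg of antibody to TBX5, and 1 input of unprecipitated chromatin. The labels name no mutation, treatment, heart chamber or cell type, and they do not say how many hearts made up a replicate. Peaks were called once on the pooled TBX5 samples, so each value below is 1 pooled value without a spread between replicates, and no test between conditions was possible. RNA was not measured, so neither the levels of the channels nor markers of the tissue can be given. In a whole organ, strong binding in few cells and weaker binding in many cannot be told apart.

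Inward rectifiers pass potassium more easily into the cell than out of it. Kir2.1, from Kcnj2, carries the resting current of ventricular muscle. GIRK1 and GIRK4, from Kcnj3 and Kcnj5, form the channel that the vagus nerve opens through acetylcholine, G protein subunits and the muscarinic receptor, mainly in atria and pacemaker tissue. Kir6.1, from Kcnj8, joins the sulphonylurea receptor of Abcc9 in channels that respond to cellular energy state and are best known in vascular smooth muscle. SK channels open when calcium binds to calmodulin on their inner side, and in the heart they are studied mostly in atria. Two-pore channels such as TASK-1 (Kcnk3) and TWIK-1 (Kcnk1) carry background potassium current, and TASK-1 is known for its role in atrial muscle.

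TBX5 summits lay at 5 of the 8 genes, namely Kcnj3, Kcnj5, Kcnj8, Kcnn2 and Kcnk3, whereas the windows of Kcnj2, Kcnn3 and Kcnk1 held none. Among all 21631 protein-coding genes 49.8% had a summit under the same rule, so 5 of 8 is near the background. The same 5 genes were bound within 10 kb (29.9% of all genes), and 6 of 8 within 100 kb (63.7%). Kcnj3, Kcnj5, Kcnj8, Kcnn2 and Kcnk3 each had a summit inside the gene body, against 19.2% of all genes. The channel gene bodies are longer, with a median of 37066 bp against 17329 bp, and this comparison was not matched for length. A summit of at least 10-fold enrichment stood in the windows of 4 channel genes (Kcnj3, Kcnj5, Kcnj8 and Kcnk3), against 11.5% of all genes. Fold enrichment is the authors' ratio of pooled ChIP signal to local background at the summit. With 8 genes these shares are a description of the list, and nothing particular to it follows from them.

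The starts of the 3 bound inward rectifier genes are shown first, because none of them held a peak although each gene was bound. These are the 250 bases before the RefSeq start (GRCm38.p6, the assembly that mm10 names), written 5′ to 3′ on the strand of the gene, with the T-box core AGGTGT, read on either strand (ACACCT), in capitals.
Kcnj5, chr9:32344345-32344594, minus strand: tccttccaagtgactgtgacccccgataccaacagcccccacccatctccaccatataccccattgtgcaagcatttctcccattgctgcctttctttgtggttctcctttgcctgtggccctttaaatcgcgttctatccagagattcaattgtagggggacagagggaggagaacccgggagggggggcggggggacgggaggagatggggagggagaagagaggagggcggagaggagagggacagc
Kcnj3, chr2:55435720-55435969, plus strand: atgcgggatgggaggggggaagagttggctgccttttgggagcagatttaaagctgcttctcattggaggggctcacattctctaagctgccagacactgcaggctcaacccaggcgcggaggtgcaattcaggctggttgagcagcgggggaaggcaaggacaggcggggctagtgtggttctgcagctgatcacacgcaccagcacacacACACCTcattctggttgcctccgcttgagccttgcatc
Kcnj8, chr6:142571615-142571864, minus strand: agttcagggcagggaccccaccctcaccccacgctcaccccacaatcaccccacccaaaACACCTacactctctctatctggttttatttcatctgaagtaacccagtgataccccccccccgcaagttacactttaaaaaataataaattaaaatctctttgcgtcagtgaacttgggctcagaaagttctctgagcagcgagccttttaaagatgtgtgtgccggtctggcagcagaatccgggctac

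The T-box core stood in the promoter windows of Kcnj3, 38 to 33 bases before the start, and of Kcnj8, 191 to 186 bases before it. Both matches lie on the strand opposite to the gene. Of 32851 RefSeq promoter windows of this length 11.8% hold the core, and of the 6 channel genes with an entry (Kcnj2, Kcnj3, Kcnj5, Kcnj8, Kcnn3 and Kcnk1) 2 do. The longer form AGGTGTGA was in none of the 6 (1.12% of all windows), nor was the GATA site AGATAA (9.99%). The NKX2-5 site CACTTNA was found in Kcnj8 (10.1% of all windows) and the TEAD site CATTCC in Kcnk1 (12.6%). The longer T-box form contains the core, so these 2 searches overlap. A match describes letters only, and no peak overlapped any of the 6 windows. Kcnn2 and Kcnk3 had no entry, and Kcnk3 is the gene with a promoter peak, described below. The nearest summit to the start in these entries lay 2874 bp away for Kcnj5, 4016 bp for Kcnj8 and 44492 bp for Kcnj3. For Kcnj3 the start of the entry, at 55435970, lies inside the gene body, which begins at 55411798. The Kcnk1 entry also starts inside its body, at 125995102, with the body beginning at 125993655. The bases before the Kcnj3 and Kcnk1 bodies were therefore neither shown nor searched. The Kcnj5 entry starts at 32344344, just inside the body's end at 32344380.

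Kcnj5, on chromosome 9 from 32314706 to 32344380, had the strongest peak of the channel genes. That peak, at 32313657 to 32314528, had 26.7-fold enrichment (95% Poisson interval 22.2 to 31.9) from a summit pileup, the pooled ChIP fragments over the summit, of 120. It ranked 256 by fold among all peaks, and 97.9% of peaks were lower. Its summit lay 508 bp beyond the 3′ end of the gene, 30039 bp from the start used by the authors, outside every annotated gene body. The peak was 872 bp wide, the widest of the 14, and overlapped regions of H3K4me1, a mark of enhancers, and of H3K27ac, a mark of active elements.

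The second Kcnj5 peak lay near the other end of the gene, at 32341346 to 32341553, inside the body and 2767 bp from the authors' start. It had 6.01-fold enrichment (3.87 to 8.97) from 22 fragments, an interval wholly below that of the stronger peak. Besides H3K4me1 and H3K27ac it overlapped H3K9ac and, in 1 of 2 region files, H3K4me3, marks found around active starts. This peak was also within 50 kb of Kcnj1, the renal inward rectifier gene next to Kcnj5, and the stronger one was within 50 kb of Arhgap32.

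Kcnj3, from 55411798 to 55598145 on chromosome 2, held a single summit in a window of 286 kb. The peak at 55480323 to 55480604 lay inside the body, with 16.0-fold enrichment (11.9 to 21.1) from 49 fragments. Its summit was 44492 bp downstream of the start used by the authors, which is inside the body, and 68664 bp from the body's lower-coordinate end. It was the one peak of the 14 with H3K27ac, in both region files, and no H3K4me1. No other protein-coding gene was within 50 kb, and the next summit outside the window was 246051 bp from the gene. Kcnj3 and its partner Kcnj5 were thus each bound by a peak above 10-fold outside the promoter class, and the intervals of these 2 peaks did not overlap.

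Kcnj8, from 142564837 to 142571614 on chromosome 6, is the shortest of the 8 gene bodies and held 1 summit. The peak at 142567363 to 142567753 lay 3758 bp downstream of the authors' start, with 14.3-fold enrichment (10.2 to 19.4) from 39 fragments, and overlapped H3K4me1 and H3K27ac. Its interval overlapped that of the Kcnj3 peak. Abcc9, the gene of the receptor subunit that pairs with Kir6.1, lies beside Kcnj8 and had 4 summits within 50 kb, the Kcnj8 peak among them. The strongest, of 32.7-fold (27.2 to 38.9), lay inside Abcc9 at 142689616 to 142690036. That is 118228 bp from Kcnj8, and it was the first summit outside the Kcnj8 window on either side.

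Kcnj2, from 111066164 to 111076825 on chromosome 11, had no summit in its window, and its neighbour Kcnj16 had none either. The nearest peak, at 111215040 to 111215569, lay 138398 bp beyond the gene in an interval where Kcnj2 was the closest protein-coding gene. It had 18.6-fold enrichment (14.2 to 23.9) from 59 fragments, with H3K27ac and no TBX3 region. Nearness does not show which gene a peak acts on.

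**Figure D1:**
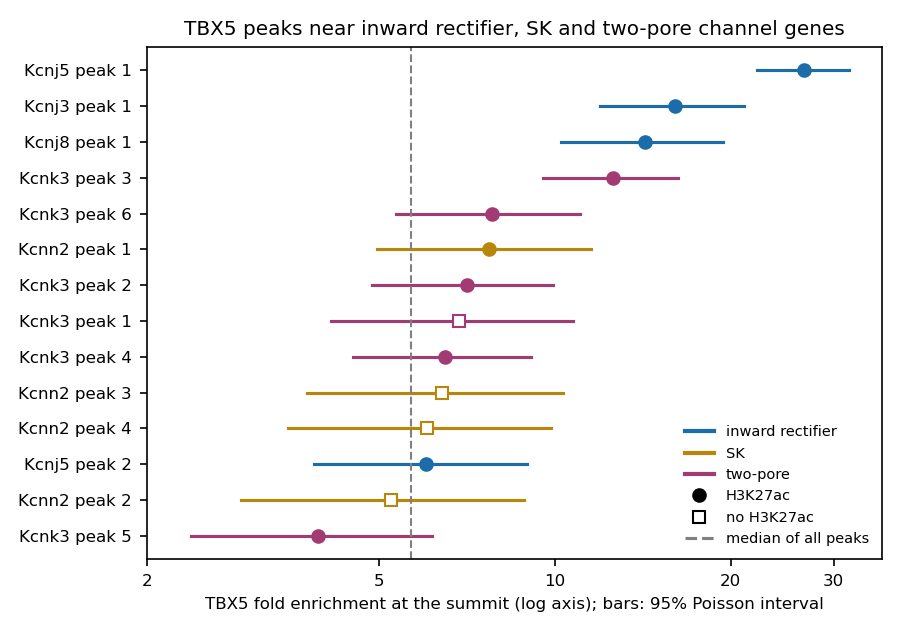
TBX5 fold enrichment (log axis) of the 14 peaks near channel genes, numbered along the chromosome within each gene, with 95% Poisson intervals of the pooled pileup as bars and the median of all peaks (5.67) as a dashed line. The Kcnj5 peak at 26.7-fold stands apart from the other 13 intervals, and the 4 peaks without H3K27ac (open squares) lie between 5.24-fold and 6.84-fold.

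Kcnk3 had the most summits with 50 kb on each side, 6 in a window of 137 kb. Its count was 1 without extension and 2 at 10 kb, where Kcnn2 had 4, and by nearest gene both had 4. It lies on chromosome 5 from 30588170 to 30625270, and its start is at the lower coordinate. Only 2.20% of protein-coding genes had at least 6 summits. In summits per 100 kb of window Kcnk3 had 4.38, above 98.7% of genes, and the density was 2.70 without extension and 2.53 with 100 kb. When all genes were split by window length into 10 groups of equal size, those in the group of Kcnk3 had a median of 1 summit and a 90th percentile of 3.

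On the upstream side 3 summits lay within 16122 bp of Kcnk3 and had it as their nearest gene. The strongest, at 30577275 to 30577628, had 12.6-fold enrichment (9.55 to 16.3) from 56 fragments and lay 10711 bp upstream of the start. A 7.06-fold peak (4.87 to 9.93) from 31 fragments, at 30571931 to 30572199, lay 5411 bp farther out, the closest pair of summits among the channel genes. The promoter peak, at 30587812 to 30588128, had 6.50-fold enrichment (4.51 to 9.09) from 32 fragments with its summit 221 bp upstream of the start. It carried H3K4me1, H3K4me3, H3K9ac and H3K27ac, and it was the one peak of the 14 in the promoter class of a channel gene's own start. The 12.6-fold peak and the promoter peak also lay inside the body of Gm9899, a long non-coding RNA gene. Its body overlaps the start of Kcnk3 and has its edge at 30588619, inside Kcnk3.

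A weaker peak lay inside Kcnk3 at 30614345 to 30614583, with 3.93-fold enrichment (2.38 to 6.15) from 17 fragments, the lowest fold of the 14. It still overlapped H3K4me1, H3K9ac and H3K27ac. The authors' distance for this peak counts from the Gm9899 edge at 30588619, not from the start of Kcnk3. The remaining 2 Kcnk3 summits were closer to other genes. A 6.84-fold peak (4.14 to 10.7) from 17 fragments, 43409 bp upstream at 30544695 to 30544906, lay inside Cib4. It had H3K4me1 but no H3K27ac, and was in the promoter class by a start 1075 bp away that matched no gene body edge. A 7.81-fold peak (5.35 to 11.0) from 30 fragments, 18151 bp beyond the gene at 30643304 to 30643544, lay 4518 bp from Slc35f6 and carried H3K4me1 and H3K27ac. Without these, 4 summits had Kcnk3 as the nearest protein-coding gene. Of those, only the 12.6-fold peak had an interval clear of the weakest one.

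Kcnk1, the other two-pore gene, had a window of similar length (137 kb) and no summit. Its nearest peak lay 113030 bp away inside Pcnx2, with 24.0-fold enrichment (18.7 to 30.4). Among all genes of its group by window length 54.3% had a summit.

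Kcnn2, from 45268750 to 45685887 on chromosome 18, is the longest of the 8 genes and held 4 summits, all inside its body. At least 4 summits stood in 7.60% of gene windows, but per 100 kb of its 517 kb window Kcnn2 had 0.773, above 60.5% of genes. The first peak, at 45278143 to 45278445, lay 9435 bp downstream of the start used by the authors for it, at 45268860. This peak had 7.72-fold enrichment (4.97 to 11.5) from 22 fragments, and overlapped H3K4me1, H3K9ac and H3K27ac. The other 3 had 5.24-fold (2.90 to 8.85), 6.41-fold (3.76 to 10.3) and 6.04-fold enrichment (3.49 to 9.86), from 12, 15 and 14 fragments. They lay at 45321675 to 45321858, 45615525 to 45615701 and 45648389 to 45648609. None of these 3 overlapped H3K27ac, and the one at 45615525 overlapped no mark region at all. For the peaks at 45615525 and 45648389 the authors' distances, 56250 and 89102 bp, count from another start, at 45559351 inside the body. The 4 intervals overlapped each other, so counting error does not separate the Kcnn2 peaks by strength.

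Kcnn3, from 89520164 to 89672494 on chromosome 3, had no summit in a window of 252 kb. Its gene body is longer than 93.4% of all bodies, and 71.2% of the genes in its group by window length had a summit. The nearest peak lay 61091 bp away inside Pmvk, with 4.01-fold enrichment (2.52 to 6.09). Within 100 kb there were 3 summits of 3.27-fold to 4.32-fold, all in the promoter class, and 2 of them overlapped TBX3 regions. For Kcnj2, Kcnn3 and Kcnk1 alike, binding too weak to reach the authors' peak threshold would not appear among the peaks.

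**Figure D2:**
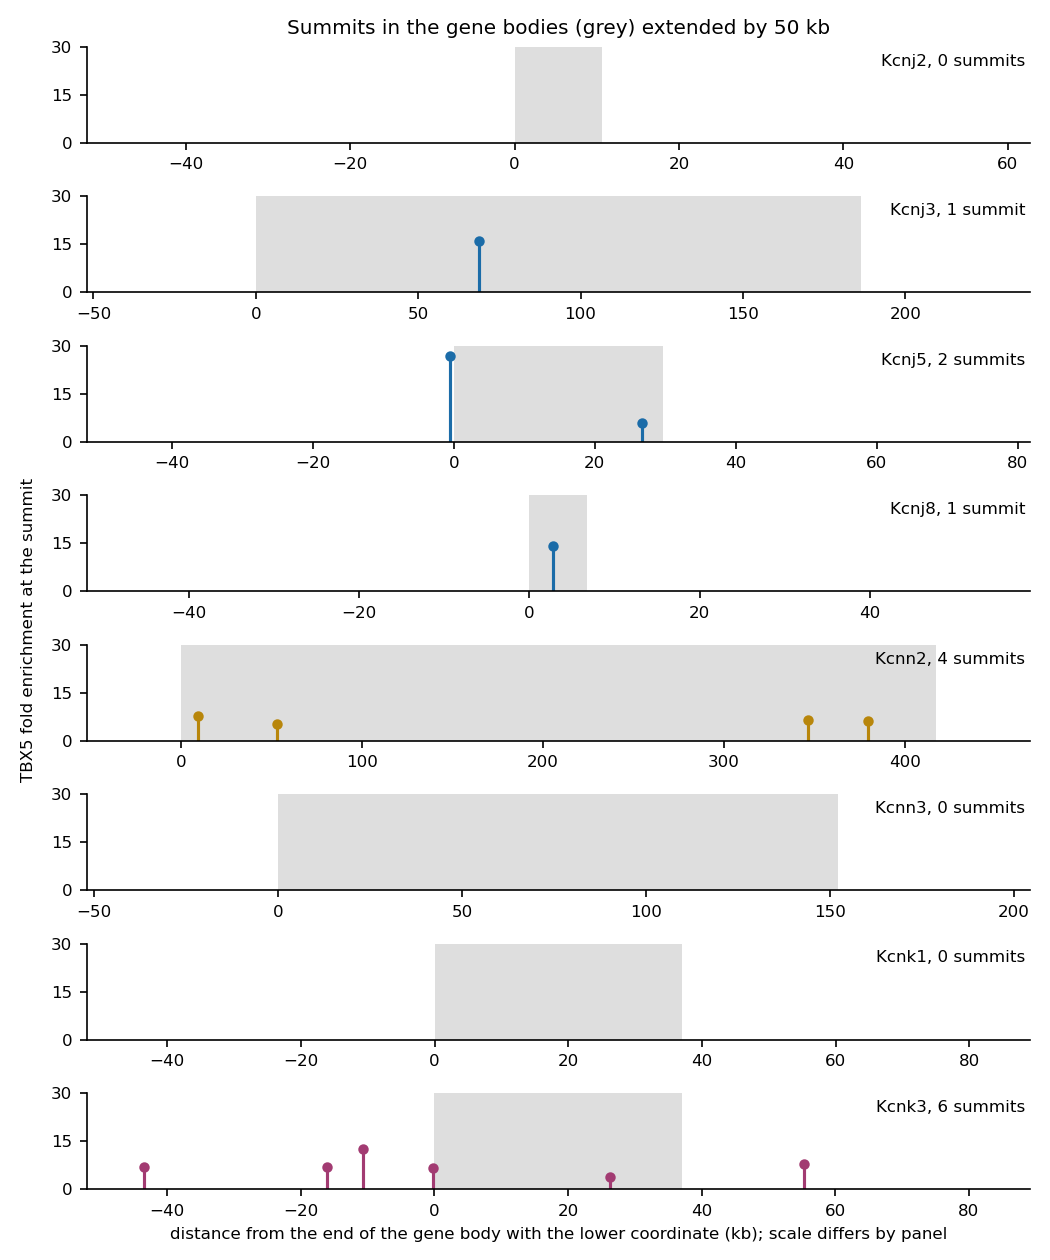
Summits in the window of each gene, as distance in kb from the lower-coordinate end of the gene body (grey) on the x axis and fold enrichment on the y axis, with a separate x scale for each panel. The Kcnj5 summit of 26.7-fold lies just outside the body, 3 Kcnk3 summits lie within 16122 bp upstream of the gene, the 4 Kcnn2 summits are inside the body, and 3 panels are empty.

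**Figure D3:**
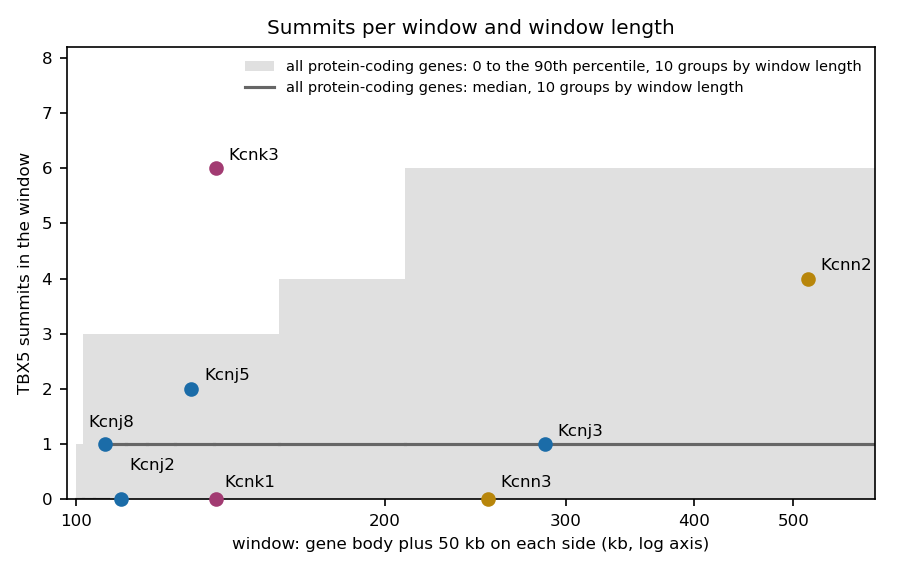
Number of summits against window length (log axis) for the 8 genes, over the median (line) and the range from 0 to the 90th percentile (grey) of all protein-coding genes in 10 groups of window length. Kcnk3, with 6 summits, lies above the grey range, and the other 7 genes lie within it.

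Windows differed in length between the families, so counts are given per length. The 4 inward rectifier genes had 4 summits, or 0.631 per 100 kb, the 2 SK genes 4 (0.520 per 100 kb) and the 2 two-pore genes 6 (2.19 per 100 kb), all of the latter at Kcnk3. Over the 8 windows together there were 0.835 summits per 100 kb, against 0.729 over the windows of all protein-coding genes. The median fold was 15.1 for the inward rectifier peaks (range 6.01 to 26.7), 6.95 for the two-pore peaks (3.93 to 12.6) and 6.23 for the SK peaks (5.24 to 7.72). With 4 to 6 peaks from 1 to 3 genes in each family, these medians describe single loci.

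In the whole list the median fold was 5.67, and it was 6.95 for the 14 channel peaks (range 3.93 to 26.7). The median pileup was 26 fragments against 22, the median background 2.47 against 2.83 and the median width 255 against 251 bp. A fold of at least 10 was reached by 4 of the 14 peaks (28.6%, exact Clopper-Pearson 95% interval 8.39% to 58.1%), against 16.7% of all peaks. Ordered by fold, 12 of 13 pairs of neighbours had overlapping intervals. The exception was the step from the first Kcnj5 peak to the Kcnj3 peak.

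Most channel peaks lay in regions with active histone marks, as did most peaks of the list. H3K27ac was present at 10 of 14 (71.4%, 41.9% to 91.6%) against 73.5% of all peaks, and the same 10 were marked in both region files (62.5% of all). A window with an H3K27ac-marked summit was found for 5 channel genes (43.1% of all genes). H3K4me1 was present at 12 of 14 against 72.3%, but not always in both files. At the Kcnn2 peaks of 7.72-fold and 5.24-fold and at the Kcnk3 promoter peak only 1 of 2 region files gave H3K4me1. H3K9ac was present at 5 (46.0% of all peaks) and H3K4me3 at 2 (31.8%). The repressive marks H3K27me3, of Polycomb, and H3K9me3, of heterochromatin, were at 0 of 14, as they were rare in the list (1.63% and 0.241%). The promoter class, within 2000 bp of a start, held 2 of 14 (24.6% of all), both in the window of Kcnk3, so 1 of 8 genes had such a summit (30.3% of all genes). In the authors' chromatin classes 10 peaks were active (73.5% of all), 2 poised (14.2%) and 2 other (10.7%). All 8 channel peaks with −log10 q of at least 10, the authors' measure of confidence, carried H3K27ac, against 73.3% of all peaks past that threshold. Such a summit stood in the windows of 5 of 8 channel genes and of 26.0% of all genes.

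TBX3, a related T-box repressor of the conduction system, had no overlapping region at any of the 14 peaks. Taking 3 counts as the limit that a count of 0 allows, 0 of 14 allows a share of up to 21.4% (the exact Clopper-Pearson interval ends at 23.2%), and 3362 of the 12436 peaks (27%) overlapped a TBX3 region. Among peaks outside the promoter class the counts were 0 of 12, which allows up to 25.0% (exact interval to 26.5%), against 21.2%. No channel gene window held a peak with TBX3 overlap, against 25.5% of all protein-coding genes. Peaks at 1 gene share their locus and are not independent, so these intervals and limits are too narrow, and they cover counting error only. The difference from the list was not tested.

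**Figure D4:**
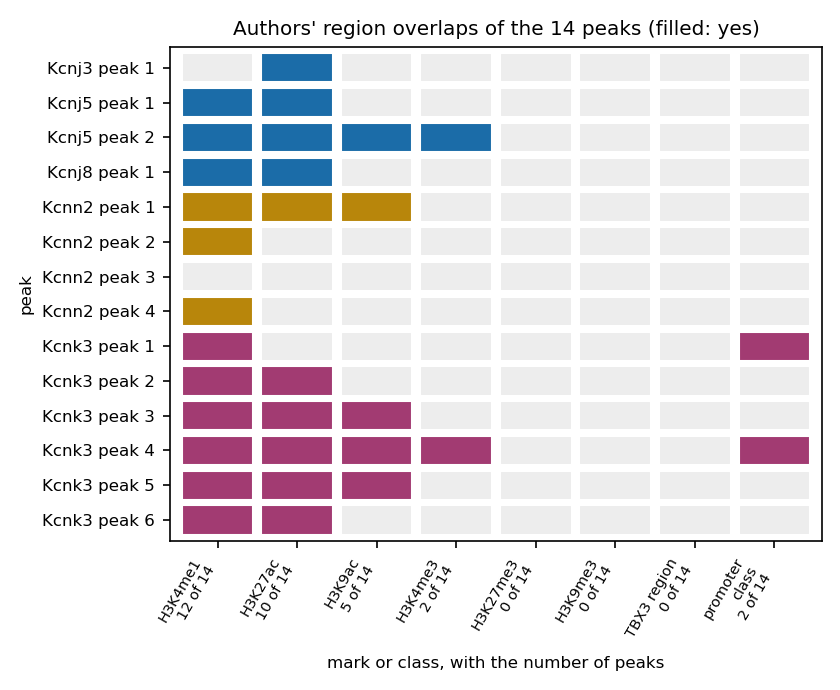
Overlap of each of the 14 peaks (rows) with histone mark regions from ENCODE files, TBX3 regions and the promoter class (columns). Cells are filled where the deposited table says yes and coloured by family. H3K4me1 is filled in 12 rows, H3K27ac in 10, and TBX3, H3K27me3 and H3K9me3 in none.

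Of the other genes of these families 16 of 25 had a summit within 50 kb (64.0%, against 49.8% of all genes). Within 10 kb 8 of the 25 did, against 29.9% of all genes, so the count near the genes was close to the background. Among 11 other Kcnj genes 6 were bound. Kcnj15 led with 15.1-fold (11.96 to 18.8) from a peak 47223 bp outside the gene. Kcnj1 followed with 14.2-fold (10.3 to 19.3), a peak 68949 bp from Kcnj5 and so the first outside the Kcnj5 window. The nearest protein-coding gene to that peak was Fli1, at 8875 bp. Kcnj11, which encodes Kir6.2, the pore of cardiac muscle energy-sensing channels, had a promoter peak of 7.74-fold (5.69 to 10.3) inside the gene. Kcnj9, Kcnj10, Kcnj13, Kcnj14 and Kcnj16 had no summit. Kcnn1 had 2 summits, the stronger of 6.40-fold (4.33 to 9.15) in the promoter class of a start elsewhere, 45068 bp outside the gene. Kcnn4 had 1 of 4.55-fold (2.52 to 7.69) at 46644 bp. Of 12 other Kcnk genes 8 were bound, led by Kcnk4 with 11.2-fold (8.35 to 14.7), 20758 bp outside the gene. Kcnk10 followed with 7.65-fold (4.70 to 11.9) inside the gene and Kcnk13 with 7.36-fold (4.63 to 11.2) at 37997 bp. Kcnk2, Kcnk9, Kcnk12 and Kcnk18 had none. Of the 28 peaks of these 25 genes 6 overlapped TBX3 regions (21.4%, against 27% of all peaks).

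Genes that act with the channels are set against the 49.8% of all genes bound under the same rule. Both sulphonylurea receptor genes had summits, Abcc9 as above and Abcc8 with 7, led by the peak inside Kcnj11. Of 19 genes that link the vagus nerve to GIRK channels 13 were bound (68.4%, against 49.8% of all genes). The strongest were Gnai2, an inhibitory G protein alpha subunit, with 31.4-fold (26.6 to 36.9) inside the gene, and Gnb2, a beta subunit, with 19.1-fold (15.6 to 23.1) 25179 bp outside it. The Gnb2 peak was in the promoter class, so it lay at a start other than that of the Gnb2 body. Chrm2, the muscarinic receptor of the heart, followed with 7 summits, led by 16.1-fold (12.7 to 20.2) inside the gene. Of the 42 peaks of this list 14 overlapped TBX3 regions (33.3%, against 27% of all peaks).

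Of 9 genes for SK calcium sensing and trafficking 6 were bound. Actn2, the Z-disc actinin that anchors SK channels, had 7 summits led by 32.9-fold (27.8 to 38.6), 25280 bp outside the gene. The calmodulin gene Calm3 followed at 12.8-fold (9.75 to 16.5), 7484 bp outside the gene, and Calm2 at 9.40-fold (7.26 to 12.0) inside it. Csnk2a1, Ppp2ca and Ppp2r1a had no summit. All 6 genes listed as modulators of two-pore channels had a summit. Popdc2, a membrane protein of striated muscle that binds cyclic AMP, led with 36.6-fold (30.7 to 43.2), 11608 bp outside the gene. Gnaq, a G protein alpha subunit, reached 15.1-fold (11.1 to 19.99), and the neighbours Popdc3 and Bves shared a peak of 5.80-fold (3.52 to 9.10). Over all 61 genes of these lists 43 had a summit (70.5%, against 49.8% of all genes), and 31 of their 103 peaks overlapped TBX3 regions (30.1%, against 27% of all peaks). By list the TBX3 share ran from 0 of 3 peaks for the other Kcnn genes to 43.8% for SK calcium sensing and trafficking.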

How the data were processed

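Pooled ChIP peaks were made with Bowtie2, SAMtools, MACS2 and ChIPseeker on mm10, per the submitters' processing notes, which name no versions or settings. Fold enrichment (a ratio), −log10 p, −log10 q, summit, distance to a start, promoter class, mark and TBX3 overlaps are the authors' deposited values, as is the score, the whole-number part of 10 times −log10 q. Neither labels nor headers state the tissue and stage of the mark and TBX3 regions. Positions are 1-based.

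Total reads per sample were not used here. Pileup and background were solved from fold, (pileup + 1)/(background + 1), and −log10 p as a Poisson tail. A whole-number pileup matched within 0.0005 for all 12436 peaks, and the script was checked on simulated peaks. Fold intervals are exact 95% Poisson intervals of the pileup with the background fixed. They cover counting error of pooled fragments only.

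Gene bodies and promoter sequences are RefSeq's (GRCm38.p6), without exons, so a summit in a body was not split into exon or intron. H3K4me1, H3K4me3 and H3K27ac have 2 region files each and counted if either gave them, and the other 3 marks have 1 file each. No test was run. Channel genes and lists were chosen with earlier results of these data known. All 8 genes were named with every peak, and of other lists the 3 of highest fold, up to 5 unbound genes and genes sharing a peak. Scripts ran in Python 3.11.15 with pandas 2.3.3, numpy 2.4.6, scipy 1.17.1 and, for figures, matplotlib 3.10.9.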

Additional observations from a re-analysis of the deposited data

How the results depend on the processing

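Windows of 0, 10 and 100 kb, peaks of −log10 q of at least 10, peaks at or above the list's median fold, and assignment by nearest gene were compared with the 50 kb windows. The 14 channel summits fell to 8 without extension and to 8 at −log10 q of at least 10, where all 8 (100%) had H3K27ac, against 73.3% of all peaks past that threshold. Without extension the share in the promoter class was 0%. The highest fold of Kcnj5 fell to 6.01 and that of Kcnk3 to 3.93 without extension, and Kcnk3 had 6.50 at 10 kb. Kcnk3 had 2.70 summits per 100 kb without extension and 2.53 at 100 kb, against 4.38. The number of bound channel genes was 5 or 6 throughout, since 100 kb added Kcnn3 and the nearest gene added Kcnj2. TBX3 overlap was 0% except at 100 kb (11.1%, from 2 peaks near Kcnn3). Over the other lists, alternatives chosen after seeing the data gave 23 of 61 bound genes without extension and 28 at −log10 q of at least 10, against 43. Of all genes 19.2%, 26.0% and 49.8% were bound under these settings. The search for motifs around summits was not run because no genome was used here. No paired analysis was possible because the peaks were called on pooled samples, and for the same reason no replicate could be left out.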
